A study of Mus musculus with 8 samples.

Results

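Cell division genes were followed in the olfactory mucosa of mice with a conditional deletion of Lhx2 in mature olfactory sensory neurons (OSNs). The 42 genes are a named list of factors that copy DNA, drive the cell cycle and separate chromosomes, which basal progenitors of the olfactory epithelium use when they divide. No measured value entered the rule, which only required that an array transcript cluster carry the gene's symbol alone. The list itself was drawn up with earlier results of these data known. All 42 genes met it, out of 19938 genes with such a cluster.

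The olfactory epithelium is rebuilt throughout life. Globose basal cells divide to give immature OSNs, horizontal basal cells form a mostly quiescent reserve, and mature OSNs do not divide. A dividing cell first licenses its replication origins, then copies its DNA under cyclin E and cyclin A, and then builds a spindle whose fibres attach to kinetochores. Most genes of these steps are transcribed in waves, those of replication under E2F factors and those of mitosis under complexes that act through CHR elements and CCAAT boxes.

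Whole olfactory mucosae of 8 mice at postnatal day 26 were each measured on 1 Affymetrix Mouse Gene 1.0 ST array, and all mice were on a mixed 129 x C57BL/6J background. The 4 knockouts were OmpCre:Lhx2(fl/fl), with both alleles of Lhx2 floxed around its first exons. The 4 controls were littermates in which at most 1 allele could recombine. Controls 2, 3 and 4 were OmpCre:Lhx2(fl/+) and control 1 was Lhx2(fl/+) without Cre. All 8 mice therefore carried at least 1 floxed allele. Cre was inserted at Omp, a gene of mature OSNs, so the deletion is not made in the dividing cells whose genes are described here. Mice of both sexes were used, and no source used here ties a mouse to its litter. Sample titles number the mice, and the leading digit of that number, 5, 7 or 9, defines what are called title series 5 (knockouts 1 and 2, controls 1 and 2), 7 (knockout 3, control 3) and 9 (knockout 4, control 4).

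Values are log2 expression values, so a difference of 1 is a doubling, and calls were made by limma where the adjusted p was under 0.05 over 23410 named clusters. As a check of the labels, Lhx2 was lower in knockouts by a log2 difference of -0.25 ± 0.06 (SE, adjusted p = 0.0383), and Omp, the marker of mature OSNs, by -0.84 ± 0.15 (adjusted p = 0.00568). Control 1, the mouse without Cre at Omp, had the highest Omp value, 13.78, against 13.22 to 13.56 in the other controls. The part of the Cre insertion in the Omp difference was not tested. After centring each array on the mature OSN markers, the difference of Lhx2 turned to 0.31, with the median of all named clusters at 0.61. That centring used 16 listed markers, whose mean fell by 32.4% in knockouts. The paper reports a smaller average fall for its longer mature OSN list, so this centring shifts values more than that list would. The cluster of Lhx2 also covers exons outside the floxed part, and Cre leaves the gene intact in cells other than mature OSNs. The paper also reports that recombination by OmpCre was incomplete, so part of the mature OSNs in knockouts kept Lhx2. Of 16 mature OSN markers 14 fell in knockouts, and the part of that shift in the results for cell division genes was not tested. The members mark division in any cell type, so the arrays do not place their RNA in basal cells. In whole tissue, more or fewer cells of a type and more or less RNA per cell cannot be told apart.

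As a group, the cell division genes lay slightly higher in knockouts. The mean log2 value over the 42 genes was 8.85, 8.90, 8.85 and 8.71 in knockouts 1 to 4, against 8.66, 8.77, 8.73 and 8.54 in controls 1 to 4. Knockouts 1, 2 and 3 lay above all controls, and knockout 4 lay below controls 2 and 3, so the groups overlapped. The means were 8.83 ± 0.08 in knockouts and 8.68 ± 0.10 in controls (SD, n = 4 each), a difference of 0.15, or 10.9%. The median difference over the 42 genes was 0.17, beside 0.05 over all named clusters. Knockout 4 and control 4, both of title series 9, were the lowest array of their group, and the difference within series was 0.16 in series 5, 0.12 in series 7 and 0.16 in series 9. Leaving out title series 9, chosen after seeing the data, gave a difference of 0.14.

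**Figure D1:**
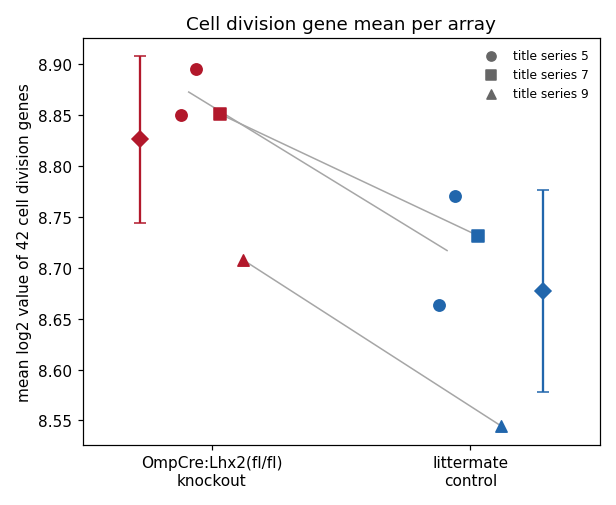
Mean log2 value of the 42 cell division genes on each array (y axis), with knockouts left and controls right, the marker shape giving the title series, grey lines joining the means of each series and diamonds the group mean ± SD (n = 4). Each grey line is higher at its knockout end, by 0.12 to 0.16, while knockout 4 (8.71) lies below 2 of the 4 controls.

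Single genes mostly did not pass the test. Of the 42 genes, 1 was higher in knockouts, the kinetochore motor gene Cenpe, while 2.1% of all named clusters were called higher. None was lower by limma, where 6.29% of all named clusters were called lower. At an unadjusted p under 0.05, 14 of the 42 were higher (9.3% of all named clusters) and 0 lower (8.87%). The methods' t-test with Benjamini-Hochberg adjustment called 0 in either direction, beside 438 higher and 1266 lower of all 23410 named clusters. The difference was above 0 for 39 of 42 genes, beside 66.6% of all named clusters, and below 0 for Mcm3, Cdt1 and Pcna, of which Cdt1 and Pcna were above 0 after subtracting each array's median and all 3 after centring on the mature OSN markers. In 8 genes all 4 knockouts lay above all 4 controls (6.42% of all named clusters), and in 0 below (7.83%).

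With title series as a block, 7 of the 42 genes were higher, Bub1, Cenpe, Gmnn, Kif11, Kif23, Nusap1 and Top2a, where the background was 4.16%. None was lower in that fit at the adjusted threshold or at an unadjusted p under 0.05, against backgrounds of 7.33% and 10.4%. After subtracting each array's median, 9 genes were called higher (background 4.39%), and the median difference of all named clusters became 0.11. Quantile normalization gave 2 (background 1.93%). Centring on the mature OSN markers called all 42 higher, where 21766 of all 23410 named clusters were called higher and that median was 0.61. The call of Cenpe was lost when control 1, 2 or 4 or knockout 1, 2 or 3 was left out, with all clusters of the array tested and by the methods' t-test.

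**Figure D2:**
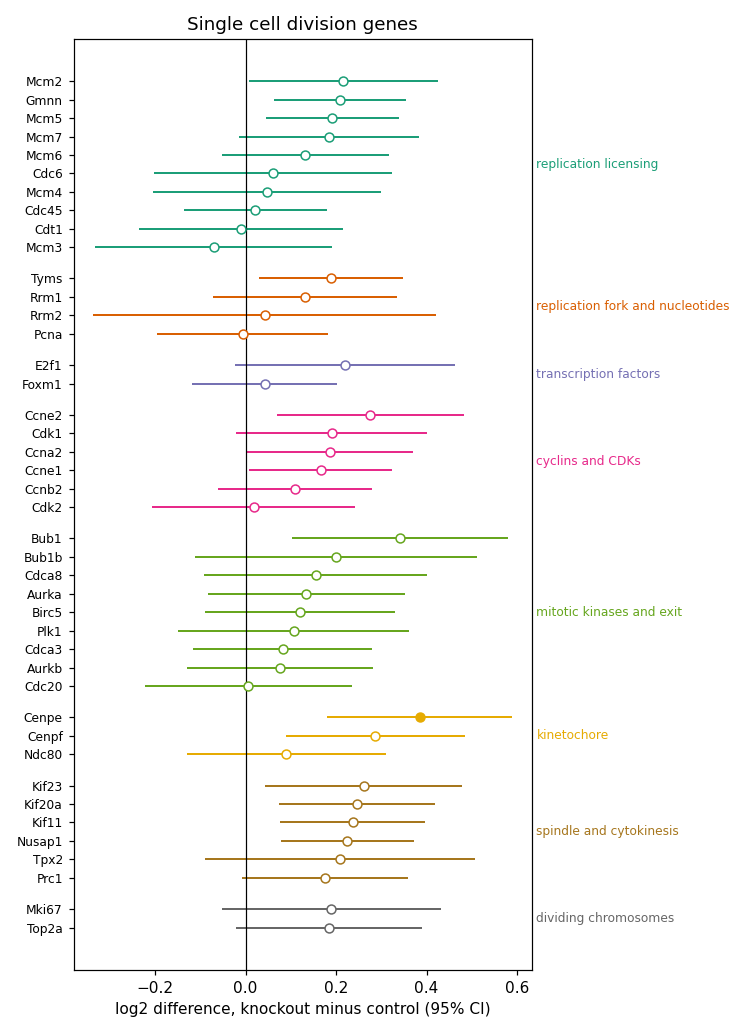
Log2 difference, knockout minus control (x axis), of each of the 42 cell division genes with its 95% confidence interval from limma, grouped and coloured by role, with a filled point where the adjusted p was under 0.05. The points lie between -0.07 (Mcm3) and 0.38 (Cenpe, the filled point), and 28 of the 42 intervals cover 0.

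Replication begins with licensing. Cdc6 and Cdt1 load the helicase that Mcm2 to Mcm7 form, geminin (Gmnn) holds Cdt1 back once copying has begun, and Cdc45 joins the active helicase. None of these 10 genes was called, and their mean was 8.28 ± 0.06 in knockouts and 8.18 ± 0.11 in controls (SD, n = 4 each), a difference of 0.10, or 7.02%. Gmnn had 6.54, 6.53, 6.58 and 6.52 in knockouts 1 to 4, against 6.40, 6.35, 6.40 and 6.19 in controls 1 to 4. All knockouts lay close together above all controls, with control 4 the lowest. Its difference was 0.21 ± 0.06 (SE, adjusted p = 0.0922, and 0.0401 with title series as a block). Gmnn was the 1 member whose level lay under the 25th percentile of all named clusters.

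Among the helicase subunits, Mcm2 differed by 0.22 ± 0.09 (adjusted p = 0.251), Mcm5 by 0.19 ± 0.06 (adjusted p = 0.128) and Mcm7 by 0.18 ± 0.09 (adjusted p = 0.316). Mcm5 was the 1 subunit whose groups did not overlap. The differences of Mcm6 (0.13), Mcm4 (0.05) and Mcm3 (-0.07) had 95% intervals that covered 0, as had Mcm7, so subunits of 1 complex ranged from -0.07 to 0.22. Cdc6 (0.06), Cdc45 (0.02) and Cdt1 (-0.01) showed little difference between group means. For Cdt1, 91.8% of the variation over arrays lay between title series, which was the highest share among the members.

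At the fork, Pcna is the clamp that holds the polymerase to DNA. Pcna had 11.46, 11.37, 11.15 and 11.21 in knockouts 1 to 4, against 11.29, 11.44, 11.27 and 11.22 in controls 1 to 4. The groups overlapped throughout, with the highest and the lowest value both among knockouts. Its difference was -0.01 ± 0.08 (SE, adjusted p = 0.981), with a 95% interval of -0.19 to 0.18. A second cluster of Pcna gave nearly the same values. Tyms, which makes the thymidine precursor of DNA, differed by 0.19 ± 0.07 (adjusted p = 0.171) with no overlap between groups. Ribonucleotide reductase, which supplies deoxynucleotides, is made of Rrm1 and Rrm2, which differed by 0.13 ± 0.09 and 0.04 ± 0.17 (adjusted p of 0.509 and 0.93). The mean of these 4 genes was 9.90 ± 0.13 in knockouts and 9.82 ± 0.14 in controls (SD, n = 4 each).

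Both E2f1, an activator of replication genes, and Foxm1, an activator of mitotic genes, stayed uncalled, with differences of 0.22 ± 0.11 (adjusted p = 0.33) and 0.04 ± 0.07 (adjusted p = 0.815). Cyclin E starts DNA synthesis together with Cdk2. Its gene Ccne2 had 8.29, 8.03, 7.90 and 7.96 in knockouts 1 to 4, against 7.86, 7.76, 7.81 and 7.65 in controls 1 to 4. Every knockout lay above every control, though knockout 3 was only just above control 1. The difference of Ccne2 was 0.28 ± 0.09 (SE, adjusted p = 0.121).

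The other cyclin E gene, Ccne1, had 8.10, 8.11, 7.96 and 7.94 in knockouts 1 to 4, against 7.81, 7.95, 7.91 and 7.77 in controls 1 to 4. Here control 2 lay just above knockout 4, so the groups overlapped. Ccne1 differed by 0.17 ± 0.07 (SE, adjusted p = 0.241), and Cdk2 by 0.02 ± 0.10 (adjusted p = 0.951).

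Cdk1 is the kinase that brings cells into mitosis with the A and B cyclins. It had 9.78, 9.84, 9.86 and 9.70 in knockouts 1 to 4, against 9.45, 9.85, 9.66 and 9.47 in controls 1 to 4. Control 2 was as high as the highest knockouts, and the other controls lay below all knockouts. Cdk1 differed by 0.19 ± 0.09 (SE, adjusted p = 0.328), its partners Ccna2 by 0.19 ± 0.08 (adjusted p = 0.269) and Ccnb2 by 0.11 ± 0.07 (adjusted p = 0.513). Over these 6 cyclin and kinase genes the mean was 9.22 ± 0.05 in knockouts and 9.07 ± 0.11 in controls (SD, n = 4 each), a difference of 0.16, or 11.5%.

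Mitotic kinases and the genes of mitotic exit had a mean of 8.48 ± 0.10 in knockouts and 8.35 ± 0.11 in controls (SD, n = 4 each), a difference of 0.14, or 9.85%. Bub1, a kinase of the checkpoint that waits for chromosomes to attach, had 8.55, 8.70, 8.79 and 8.59 in knockouts 1 to 4, against 8.26, 8.23, 8.62 and 8.15 in controls 1 to 4. Control 3 stood above the other controls and above knockouts 1 and 4, and in each series the knockouts were higher. Bub1 differed by 0.34 ± 0.11 (SE, adjusted p = 0.0928, and 0.0121 with title series as a block), and by 0.38, 0.16 and 0.44 within series 5, 7 and 9. Its partner Bub1b differed by 0.20 ± 0.14 (adjusted p = 0.513). Cdc20, which the checkpoint holds back until the spindle is ready, differed by 0.01 ± 0.10 (adjusted p = 0.985) and turned below 0 with quantile normalization, and Cdca3 by 0.08 ± 0.09 (adjusted p = 0.691).

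Plk1 and Aurka act on centrosomes and spindle poles, and differed by 0.11 ± 0.11 (adjusted p = 0.692) and 0.13 ± 0.10 (adjusted p = 0.533). Aurkb, Birc5 and Cdca8 encode parts of the chromosomal passenger complex, which corrects faulty attachments. They differed by 0.08 ± 0.09, 0.12 ± 0.09 and 0.15 ± 0.11 (adjusted p of 0.729, 0.569 and 0.524), and their groups overlapped.

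The 3 kinetochore genes had a mean of 8.23 ± 0.11 in knockouts and 7.97 ± 0.14 in controls (SD, n = 4 each), a difference of 0.25, or 19.2%, and of 0.38, 0.14 and 0.11 within series 5, 7 and 9. Cenpe, a motor that carries chromosomes along spindle fibres, had 8.44, 8.30, 8.24 and 8.06 in knockouts 1 to 4, against 7.91, 7.72, 7.98 and 7.88 in controls 1 to 4. All knockouts lay above all controls, knockout 1 the most and knockout 4 the least. Cenpe rose by 0.38 ± 0.09 (SE, adjusted p = 0.0244), which is 30.6%, with a 95% interval of 0.18 to 0.59. Within series 5, 7 and 9 the differences were 0.55, 0.25 and 0.18. Leaving out 1 array at a time gave adjusted p from 0.0111 to 0.0737, and 6 of these 8 fits lost the call.

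Cenpf, a protein of the outer kinetochore, had 8.98, 8.88, 8.84 and 8.79 in knockouts 1 to 4, against 8.58, 8.39, 8.79 and 8.58 in controls 1 to 4. The groups only just stayed apart, since control 3 came close to knockout 4. Its difference was 0.29 ± 0.09 (SE, adjusted p = 0.0879), and within series 5, 7 and 9 it was 0.45, 0.05 and 0.21. Ndc80, which binds the microtubule end, differed by 0.09 ± 0.10 (adjusted p = 0.696).

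Spindle and cytokinesis genes had a mean of 9.02 ± 0.11 in knockouts and 8.80 ± 0.10 in controls (SD, n = 4 each), a difference of 0.23, or 16.9%, and all 6 had a difference above 0 (66.6% of all named clusters). Kif11, the motor that pushes spindle poles apart, had 9.70, 9.68, 9.67 and 9.46 in knockouts 1 to 4, against 9.35, 9.37, 9.48 and 9.36 in controls 1 to 4. Knockouts 1 to 3 lay together above all controls, and knockout 4 lay just below control 3. Kif11 differed by 0.24 ± 0.07 (SE, adjusted p = 0.081, and 0.0367 with title series as a block).

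Nusap1, which binds spindle microtubules near chromosomes, had 9.50, 9.54, 9.41 and 9.48 in knockouts 1 to 4, against 9.27, 9.27, 9.35 and 9.14 in controls 1 to 4. The groups did not overlap, with knockout 3 and control 3 of the same series nearest to each other. Nusap1 differed by 0.23 ± 0.06 (SE, adjusted p = 0.0664, and 0.0458 with title series as a block).

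Kif20a, a motor of the cleavage furrow, had 8.84, 8.94, 8.96 and 8.77 in knockouts 1 to 4, against 8.47, 8.67, 8.74 and 8.64 in controls 1 to 4. All knockouts lay above all controls, knockout 4 by the least. Kif20a differed by 0.25 ± 0.08 (SE, adjusted p = 0.0914). Kif23, another motor of cytokinesis, differed by 0.26 ± 0.10 (adjusted p = 0.17, and 0.0154 with title series as a block), Tpx2, a spindle assembly factor, by 0.21 ± 0.13 (adjusted p = 0.477) and Prc1, which bundles midzone microtubules, by 0.18 ± 0.08 (adjusted p = 0.293).

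Mki67, the proliferation marker that coats mitotic chromosomes, had 10.23, 10.32, 10.45 and 10.18 in knockouts 1 to 4, against 10.00, 10.05, 10.41 and 9.95 in controls 1 to 4. Control 3 lay above knockouts 1, 2 and 4 and just below knockout 3 of the same series. Mki67 differed by 0.19 ± 0.11 (SE, adjusted p = 0.412, and 0.0813 with title series as a block).

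Top2a, which untangles replicated DNA, had 9.88, 9.92, 9.99 and 9.69 in knockouts 1 to 4, against 9.69, 9.77, 9.79 and 9.48 in controls 1 to 4. Knockout 4 lay level with or below controls 1 to 3, and in every series the knockouts were higher. Top2a differed by 0.18 ± 0.09 (SE, adjusted p = 0.33, and 0.0456 with title series as a block), and by 0.17, 0.20 and 0.20 within series 5, 7 and 9. A second cluster of Top2a, with values of 3.40 to 3.94 in knockouts and 3.45 to 4.06 in controls, gave a difference of -0.21 ± 0.15 (SE). The level of that cluster lay at percentile 0.77 of all named clusters, near the floor of the arrays.

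**Figure D3:**
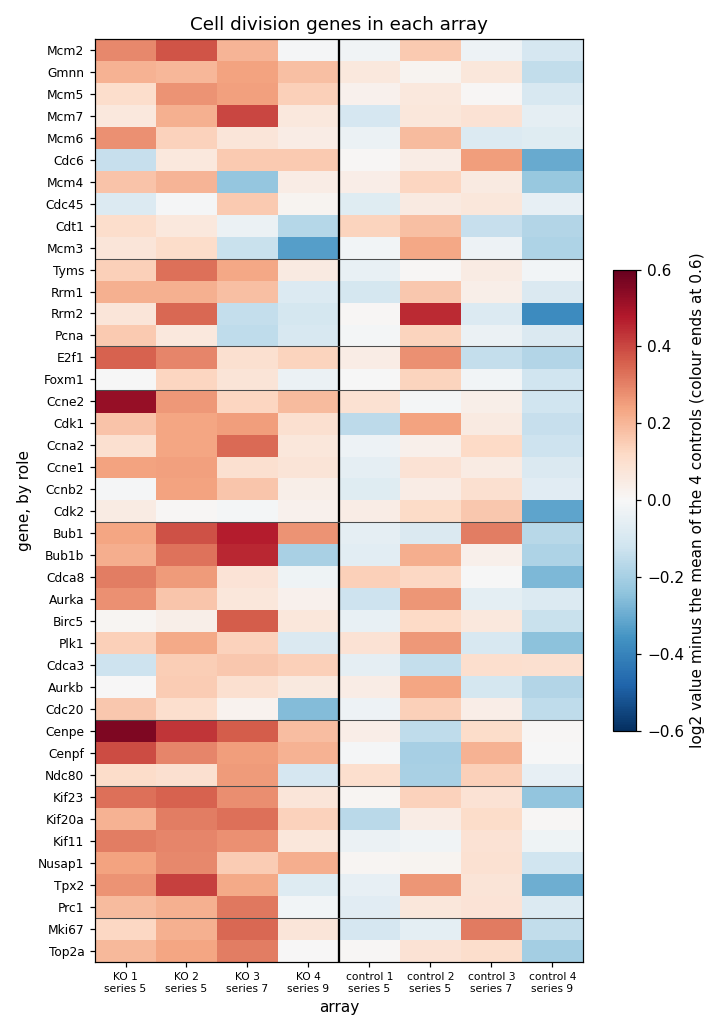
Log2 value of each cell division gene minus its mean over the 4 controls (colour), with the 4 knockouts left and the 4 controls right (columns, with title series) and genes grouped by role (rows). Knockouts 1 to 3 are mostly red, knockout 4 is paler, and control 4 is the bluest array, being the lowest control for 28 of the 42 genes.

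Title series accounted for more of the variation than genotype did in 24 of the 42 genes (57.1%), beside 65.9% of all named clusters. The median share of the variation over arrays was 28.6% between groups and 44.1% between title series, beside 15.7% and 37.7% over all named clusters. Title series has more levels than group, so it tends to take the larger share even where neither has an effect. These shares therefore do not rank series against genotype. Taken gene by gene, 38, 40, 36 and 26 of the 42 genes in knockouts 1 to 4 lay above the median of their own 4 controls, against 17, 35, 30 and 2 genes in controls 1 to 4. Knockout 4 was the lowest knockout for 27 genes and lay below at least 1 control for 33. In a test of the series with group in the model, limma called 0 of the 42 genes (2.14% of all named clusters), and 16 had an unadjusted p under 0.05 (26.3%).

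Within series 5 the difference was above 0 for 33 of the 42 genes (61.5% of all named clusters), within series 7 for 35 (59%) and within series 9 for 37 (59.5%). It was above 0 in all 3 series for 28 genes (29.2%), and below 0 in all 3 for Mcm3 (15.2%). A test of whether the difference in series 5 departed from that in series 7 and 9 called 0 of the 42 genes (0% of all named clusters), and none had an unadjusted p under 0.05 (5.18%). With 1 mouse per group in series 7 and 9, that test draws its spread from series 5 alone.

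Promoter sequences were searched for motifs known from genes of these roles. The list was chosen by role, so such motifs come with that choice and are no result of these arrays. RefSeq windows on GRCm38.p6, from 250 bases before to 50 bases after the start, were at hand for 34 of the 42 genes and for 27025 genes in all. The motifs searched, on both strands, were the CHR element (TTTGAA or TTCGAA), the CCAAT box (CCAAT) and the E2F core (spelled GGCGGGA, in a variant GGCGCGA, and in another variant TTTGGCG). The palindrome TTCGAA was counted once, and GGCGCGA and TTTGGCG matches can overlap. The stretches shown run 5′ to 3′ from 120 bases before to 30 bases after the start, with the matches in capitals, and were chosen after the values were seen. They are those of 6 mitotic genes, Cenpe, Cenpf, Kif11, Kif23, Nusap1 and Bub1, of the replication gene Mcm5 and, as a contrast, of Cdc20. A match on the other strand appears as ATTGG for CCAAT or TTCAAA for TTTGAA.
Cenpe, chr3:135212443-135212592, plus strand: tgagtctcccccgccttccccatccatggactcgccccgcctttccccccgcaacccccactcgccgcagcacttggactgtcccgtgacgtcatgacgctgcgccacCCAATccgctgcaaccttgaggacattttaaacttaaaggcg
Cenpf, chr1:189688057-189688206, minus strand: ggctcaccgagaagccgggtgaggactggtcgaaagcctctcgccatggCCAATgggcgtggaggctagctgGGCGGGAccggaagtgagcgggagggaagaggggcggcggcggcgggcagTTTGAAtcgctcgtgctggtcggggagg
Kif11, chr19:37376262-37376411, plus strand: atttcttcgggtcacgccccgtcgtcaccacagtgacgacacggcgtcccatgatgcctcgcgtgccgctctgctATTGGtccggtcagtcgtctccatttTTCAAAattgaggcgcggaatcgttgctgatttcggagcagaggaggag
Kif23, chr9:61946770-61946919, minus strand: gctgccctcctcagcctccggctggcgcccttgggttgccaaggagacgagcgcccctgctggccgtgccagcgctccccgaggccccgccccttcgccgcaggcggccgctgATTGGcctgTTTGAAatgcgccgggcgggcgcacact
Nusap1, chr2:119618178-119618327, plus strand: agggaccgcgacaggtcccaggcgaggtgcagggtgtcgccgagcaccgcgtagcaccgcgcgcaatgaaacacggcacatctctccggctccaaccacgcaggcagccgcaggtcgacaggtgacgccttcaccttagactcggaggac
Bub1, chr2:127831830-127831979, minus strand: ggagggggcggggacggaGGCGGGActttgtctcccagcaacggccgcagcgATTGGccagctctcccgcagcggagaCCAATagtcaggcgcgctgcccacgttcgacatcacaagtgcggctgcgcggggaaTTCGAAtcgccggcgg
Mcm5, chr8:75109389-75109538, plus strand: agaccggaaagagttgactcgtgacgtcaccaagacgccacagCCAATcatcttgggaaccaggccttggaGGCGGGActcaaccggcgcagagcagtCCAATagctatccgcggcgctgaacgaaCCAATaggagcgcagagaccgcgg
Cdc20, chr4:118437314-118437463, minus strand: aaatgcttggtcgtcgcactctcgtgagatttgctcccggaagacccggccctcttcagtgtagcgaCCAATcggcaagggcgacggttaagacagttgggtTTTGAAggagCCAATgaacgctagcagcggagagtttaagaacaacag

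Among these, Cenpf and Bub1 held all 3 kinds of motif, Kif11 and Kif23 a CCAAT box and a CHR element, and Mcm5 3 CCAAT boxes and an E2F core. Cenpe, the called gene, held a CCAAT box only, Nusap1 no match, and Cdc20, whose difference was 0.01, held a CHR element and 2 CCAAT boxes.

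In the full windows, the CHR element was in 19 of 34 (55.9%), beside 19.4% of all 27025 windows. By role it was in 14 of 17 mitotic genes (82.4%) and in 3 of 12 replication genes. The CCAAT box was in 26 of 34 windows (76.5%, beside 37.9% of all), in 14 of the 17 mitotic and 9 of the 12 replication genes. The E2F core was in 15 of 34 windows (44.1%, beside 15.0% of all), in 7 of the 17 mitotic and 6 of the 12 replication genes. These are matches of letters and were not tested as binding sites.

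**Figure D4:**
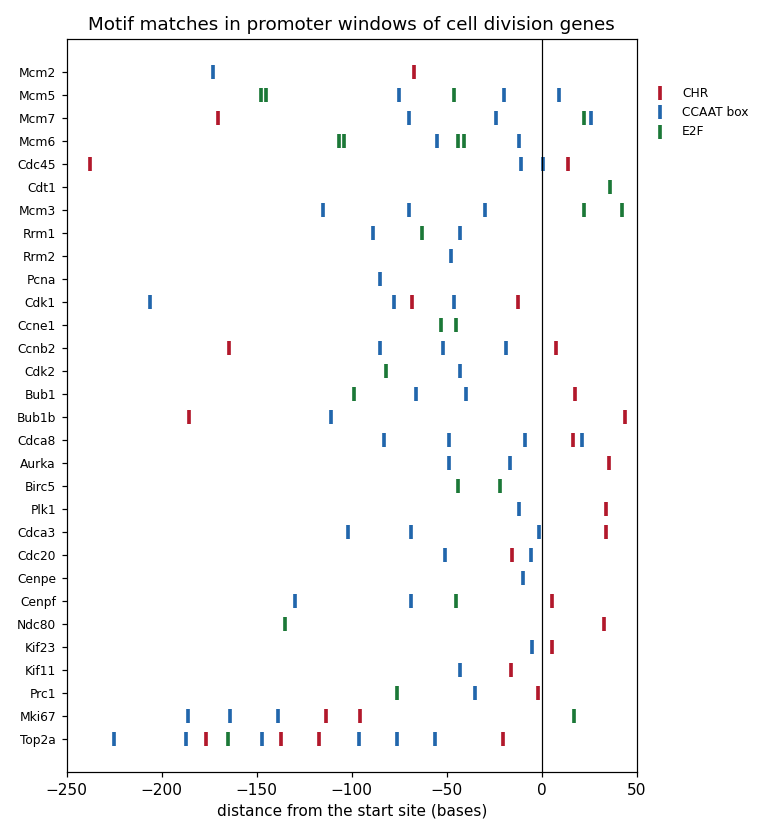
Position of each motif match, as distance from the start site in bases (x axis), in the promoter windows of the 30 cell division genes with at least 1 match (y axis, by role), with red for CHR, blue for CCAAT and green for E2F. The matches cluster near the start site, and CHR marks are mostly in the mitotic genes (14 of 17) and seldom in the replication genes (3 of 12).

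Other genes of the cell cycle were also called only in the higher direction. Of 121 listed pathway genes outside the 42 members, 116 were measured, and limma called 6 higher (5.17%, beside 2.1% of all named clusters) and 0 lower. At an unadjusted p under 0.05, 28 of the 116 were higher (24.1%, beside 9.3%) and 0 lower. The methods' t-test called 7 higher (6.03%) and 0 lower, beside 438 higher and 1266 lower of all 23410 named clusters. In the further replication genes (28 of 29 measured), Tk1, which salvages thymidine, was called at 0.28 ± 0.07 (SE, adjusted p = 0.0287). Tk1 has 2 clusters, and the other one differed by 0.02 ± 0.10 (SE), so this call is uncertain. It was also lost with all clusters tested, without title series 9 and without control 1, 2 or 4 or knockout 2, 3 or 4 (highest adjusted p = 0.0883). The mean of that list differed by 0.10 and its median difference was 0.11, beside 0.05 over all named clusters, and 26 of its 28 genes had a difference above 0 (66.6% of all named clusters).

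In the further mitosis genes (53 of 55 measured), 52 had a difference above 0 (66.6% of all named clusters), the list mean differed by 0.15 and the median difference was 0.13. Zwint and Knl1, both of the kinetochore, were called. Zwint had 11.34 to 11.37 in the 4 knockouts, against 11.00 to 11.08 in the 4 controls, a rise of 0.32 ± 0.05 (SE, adjusted p = 0.00296). Knl1 had 9.07 to 9.20 in knockouts, against 8.62 to 8.94 in controls, a rise of 0.34 ± 0.08 (SE, adjusted p = 0.0193). In both genes the groups did not overlap. With title series as a block, 10 of the 53 were called higher, where the background was 4.16%. The call of Knl1 was lost without control 1, knockout 1 or knockout 3 (highest adjusted p = 0.0636) and without title series 9 (adjusted p = 0.0707).

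Among 22 genes of G1 drivers and the E2F programme, Cdk6, a cyclin D kinase, rose by 0.34 ± 0.06 (SE, adjusted p = 0.00356) and E2f5, a repressive E2F factor, by 0.31 ± 0.07 (SE, adjusted p = 0.0149). A difference above 0 was seen in 16 of the 22, near the share of all named clusters (66.6%). Of 13 measured inhibitors (15 listed), the cyclin kinase inhibitor Cdkn1c rose by 0.25 ± 0.06 (SE, adjusted p = 0.0346). Its call was lost with quantile normalization (adjusted p = 0.0624), with all clusters tested (adjusted p = 0.0716), without title series 9 (adjusted p = 0.0913) and in 6 of the 8 fits with 1 array left out, those without control 1, 2 or 3 or knockout 1, 2 or 4 (highest adjusted p = 0.112). The call of E2f5 was lost without knockout 4 (adjusted p = 0.054) and without title series 9 (adjusted p = 0.095). Cdk6 had 11.13 to 11.29 in knockouts, against 10.82 to 10.88 in controls, and Cdkn1c had 8.50 to 8.68 in knockouts, against 8.31 to 8.44 in controls, so the groups of both stayed apart. The median difference was 0.06 for the G1 and E2F list and 0.08 for the inhibitors.

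Among markers of basal cells, both the dividing globose and the mostly quiescent horizontal kind, none was called on the deposited values with all arrays and no block. The globose basal cell list (10 of 11 genes measured) had a mean of 9.91, 9.90, 9.84 and 9.72 in knockouts 1 to 4, against 9.77, 9.82, 9.66 and 9.70 in controls 1 to 4. Knockout 4 lay below controls 1 and 2, so the groups overlapped, and the difference of the means was 0.11. In that fit limma called none of its genes, and 1 had an unadjusted p under 0.05, Gadd45g, a gene of differentiating progenitors named after its values were seen. Gadd45g differed by 0.38 ± 0.11 (SE, adjusted p = 0.0771) and was called higher with title series as a block (adjusted p = 0.0231), with array medians subtracted, with mature OSN centring and without control 2. Ezh2 and Insm1 of that list differed by 0.10 ± 0.07 and -0.02 ± 0.08 (SE, adjusted p of 0.509 and 0.927). Of its 10 genes, 9 had a difference above 0, all but Insm1, beside 66.6% of all named clusters. Horizontal basal cell markers (6 of 6 measured, 0 called, 1 at an unadjusted p under 0.05) differed in mean by 0.05, with Krt5 at 0.02 ± 0.11 and Trp63 at 0.15 ± 0.06 (SE, adjusted p of 0.949 and 0.207). Immature OSN markers (13 measured) held 1 called higher, Tubb3 at 0.41 ± 0.06 (SE, adjusted p = 0.00076), and 1 called lower, Ncam1 at -0.22 ± 0.05 (SE, adjusted p = 0.0303), whose direction turned with mature OSN centring and whose call was lost with array medians subtracted, with all clusters tested, without title series 9 and without control 1, 2 or 3 or knockout 1, 2 or 4. At an unadjusted p under 0.05, 4 of the 13 were higher (9.3% of all named clusters) and 2 lower (8.87%). Alternative fits also called Marcksl1, Nhlh2 and Stmn2 higher, all named after their values were seen. Marcksl1 was called with title series as a block, and all 3 with array weights.

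Blood-forming cells also divide, and their markers varied between mice. Neutrophil and precursor markers (13 measured, 0 called by limma, 1 higher and 1 lower at an unadjusted p under 0.05) had means of 8.13 to 8.33 in knockouts and 7.97 to 8.37 in controls, and differed by -0.16, 0.07 and 0.27 within series 5, 7 and 9. Erythroid markers (7 of 11 measured, 0 called by limma without a block, 1 at an unadjusted p under 0.05) had means of 8.22 to 8.71 in knockouts and 8.03 to 8.73 in controls, and differed by 0.03, -0.02 and 0.57 within series 5, 7 and 9. The transferrin receptor gene Tfrc of that list differed by 0.27 ± 0.08 (SE, adjusted p = 0.0552) and was called higher with title series as a block (adjusted p = 0.0328), with array medians subtracted, mature OSN centring, array weights, dim clusters left out or an intensity trend, and without control 3 or control 4. Control 4 was the lowest array for both lists and for the mean of the cell division genes. The part of these markers in the members' differences was not tested.

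**Figure D5:**
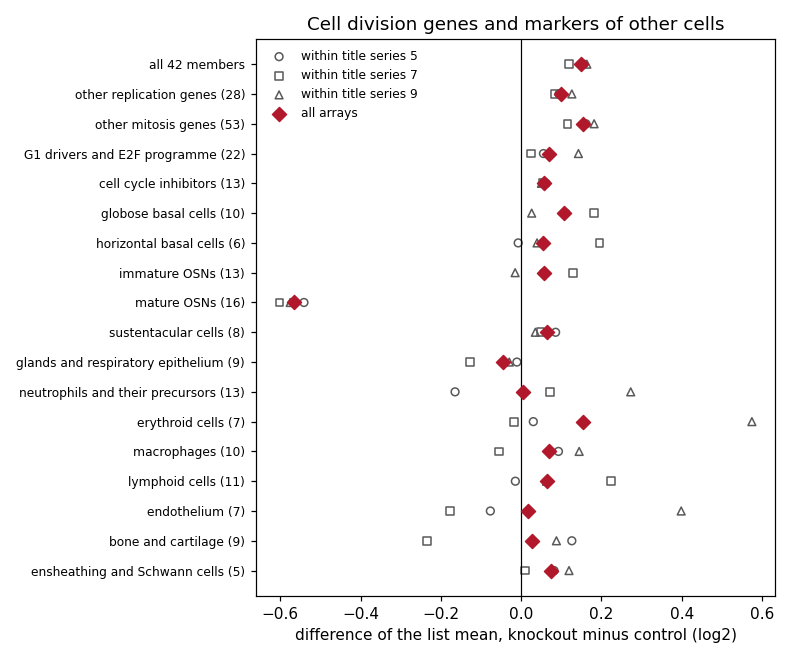
Difference of the list mean, knockout minus control (log2, x axis), for the 42 cell division genes, 4 further cell cycle lists and 13 cell type marker lists (y axis, genes measured in brackets), with red diamonds for all arrays and open markers within each title series. Cell cycle lists lie at 0.06 to 0.15, the mature OSN list at -0.57, and erythroid markers spread to 0.57 in series 9.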

How the data were processed

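Olfactory mucosae of 8 mice were each measured on 1 Affymetrix Mouse Gene 1.0 ST array. The authors deposited log2 expression values made with Affymetrix Expression Console (settings not given in the sources used here), 1 for each transcript cluster over all exons of a gene. They lay between 2.35 and 14.6 and were used unchanged, without the rescaling to a long mature OSN mRNA list that the methods describe. Arrays give no counts, so the number of arrays limits the precision.

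The array had 35557 clusters. A single gene symbol stood on 21789 of them (21698 found in RefSeq through Entrez ID), several on 1621 and none on 12147. All 23410 with a symbol entered the tests, members were read only from clusters with 1 symbol, and where a gene had several, the cluster with the highest mean was used. Knockouts and controls were compared with limma 3.58.1 (lmFit, then eBayes, in R 4.3.3) without a covariate, and p-values were adjusted by Benjamini-Hochberg over all 23410 clusters. Title series as a block, other scalings, array weights, filters, the methods' t-test and each array left out were tried as alternatives, and 1 further alternative, leaving out title series 9, was chosen after seeing the data. Scripts were tested on simulated data. The phenotype label of each mouse set its group, and replicate numbers are names. Where nothing states litters, p-values measure the spread between these 8 mice. Figures were drawn with matplotlib 3.10.9.

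Members and lists were chosen with earlier results of these data known. Values per array are given for called members, the 8 members with the smallest p and Mki67, Top2a, Cdk1, Pcna and Ccne1. From each pathway list up to 4 called genes are named, and from each marker list up to 2 called genes or else the 2 brightest.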

Additional observations from a re-analysis of the deposited data

Results flagged for a closer look

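With 42 genes and other lists screened, 102 groups of 4 arrays were examined for a value far from the rest, and 5 held one, where chance gives about 1 in 20 groups. The measure is the gap to the nearest array divided by the range of the group, set against Dixon's 95% limit. In knockouts, Kif11 was 9.46 in knockout 4 against 9.67 to 9.70 in the others (ratio 0.862), and in controls it was 9.48 in control 3 against 9.35 to 9.37 in the others (ratio 0.86). Rrm1 was 10.2 in knockout 4 against 10.47 to 10.5 in the other knockouts (ratio 0.88). Birc5 was 8.01 in knockout 3 against 7.66 to 7.72 in the other knockouts (ratio 0.838). Cdca3 was 8.22 in knockout 1 against 8.48 to 8.50 in the other knockouts (ratio 0.932).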

How the results depend on the processing

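No paired analysis was possible because replicate numbers only name the mice, and title series served as the block instead. The number of the 42 genes called higher, 1 in the values as deposited, was 9 with array medians subtracted, 2 with quantile normalization, 42 centred on the mature OSN markers, 7 with title series as a block, 6 with array weights, 2 without dim clusters, 0 with all clusters tested and 0 by the methods' t-test at 0.05 or 0.01, and 0 to 3 with 1 array left out. Pathway genes called higher, 6 as deposited, were 11, 116, 15 and 14 under median subtraction, mature OSN centring, block and weights, 2 without title series 9, 2 by the methods' t-test at 0.01, and 3 to 13 with 1 array left out. The 13 marker lists held 124 measured genes, 16 of them mature OSN markers. Cell type markers without mature OSNs called higher, 2 as deposited (2.1% of all named clusters), were 6 with medians subtracted (4.39%), 1 with quantile normalization (1.93%), 104 with mature OSN centring, 5 with the block (4.16%), 7 with weights, 1 with all clusters, 5 with an intensity trend, 1 without title series 9, 1 by the methods' t-test at 0.01 and 1 to 3 with 1 array left out. Those called lower, 2 as deposited, were 1 with medians subtracted, 0 with mature OSN centring, 0 with all clusters, 1 by the methods' t-test at 0.05 and 0.01, 0 without title series 9 and 0 to 1 with 1 array left out. Title series called 0 members as deposited (2.14% of all named clusters), 3 with quantile normalization, 3 without dim clusters and 2 with an intensity trend.

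Over all named clusters, 492 were called higher and 1473 lower as deposited, 1028 and 1342 with medians subtracted, and 21766 and 802 with mature OSN centring. Centring on the mature OSN markers, which puts the median of all clusters at 0.61, gave a member mean difference of 0.714, and of 0.663 for licensing, 0.654 for fork and nucleotides, 0.722 for cyclins and CDKs, 0.696 for transcription factors, 0.701 for mitotic kinases and exit, 0.819 for kinetochore, 0.790 for spindle and cytokinesis and 0.752 for dividing chromosomes. Lhx2 turned to 0.314. With 1 array left out, the member mean difference was 0.104 to 0.188.

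Differences near 0 turned sign. With 1 array left out, Cdt1 ranged over -0.0689 to 0.0493, Pcna over -0.06 to 0.0421, Mcm3 over -0.133 to 0.016, Cdc6 over -0.0408 to 0.144, Cdc45 over -0.0245 to 0.0555, Mcm4 over -0.0293 to 0.14, Rrm2 over -0.0842 to 0.192, Cdk2 over -0.0873 to 0.0712 and Cdc20 over -0.0458 to 0.0948. With medians subtracted, Cdt1 gave 0.0477 and Pcna 0.0516, and with mature OSN centring Cdt1 gave 0.555, Pcna 0.559 and Mcm3 0.494. With array weights, Pcna gave 0.00301 and Cdk2 -0.0153. Without title series 9, Cdc6 gave -0.0732, Mcm4 -0.0286, Rrm2 -0.0356 and Cdk2 -0.0901. Cdc20 gave -0.000225 with quantile normalization. Top2a, at 0.18 as deposited, gave -0.0131 with its clusters averaged, and its second cluster lay near the floor of the arrays. The causes were not tested, and 4 arrays per group limit the precision of differences this small.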

Other observations

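The other cell type lists showed few calls. Among glands and respiratory epithelium, Foxj1, the regulator of motile cilia, fell by 0.42 ± 0.10 on the log2 scale (SE, adjusted p = 0.0335), with values of 9.04 to 9.48 in knockouts and 9.51 to 9.74 in controls. That call was lost with mature OSN centring, with all clusters tested, by the methods' t-test, without title series 9 and in each fit with 1 array left out except those without control 3 or knockout 1. Among lymphoid markers, the T cell receptor subunit Cd3g rose by 0.29 ± 0.07 (SE, adjusted p = 0.0244), with 6.18 to 6.46 in knockouts and 5.99 to 6.02 in controls. Its level lay under the 25th percentile of all named clusters, so it was not tested when dim clusters were left out, and its call was lost with quantile normalization, with all clusters tested, without title series 9 and without control 1, 2 or 3 or knockout 3 or 4. Of mature OSN markers, Cnga4 fell by 2.02 ± 0.12 and Cnga2 by 0.49 ± 0.05 (SE, adjusted p of 3.12e-06 and 0.000172).

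No gene of the remaining lists was called by limma on the deposited values with all arrays and no block. The alternatives called some: Tfrc was higher with title series as a block and in 7 further settings, array weights called Npy higher and Ctsg lower, both named after their values were seen, and mature OSN centring, which moves all genes up in knockouts, called genes of many lists higher. Sustentacular markers (Cbr2 and Cyp2g1 at 0.06 and 0.04) differed in mean by 0.06, macrophage markers (Csf1r and Lyz2 at -0.10 and 0.05) by 0.07, and ensheathing and Schwann cell markers (Sox10 and Fabp7 at -0.08 and 0.12) by 0.07. Endothelial markers (Emcn and Cdh5 at 0.01 and -0.02) differed in mean by 0.02 and bone and cartilage markers (Ibsp and Col1a1 at 0.10 and -0.14) by 0.03. Differences lay above 0 for 7 of 8 sustentacular, 8 of 10 macrophage and 4 of 5 ensheathing and Schwann cell markers. The same held for 4 of 7 endothelial and 5 of 9 bone and cartilage markers, beside 66.6% of all named clusters. Neutrophil genes Ngp and Ltf differed by 0.11 and -0.19, and erythroid genes Slc4a1 and Tfrc by 0.10 and 0.27.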
